A study of Homo sapiens with 11 samples.

Results

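The step from 12 h to 24 h of hypoxia was examined in RWPE1 cells, an immortalized and non-tumorigenic line of human prostate epithelium with basal-type features. Both libraries made after 24 h at 1% oxygen were set against the 3 libraries made after 12 h at 1% oxygen, 5 of the 11 libraries in the series, over 19981 tested genes. The libraries were chosen by their time labels and by no measured value. Cells of both groups had HEPES buffer (10 mM) in their medium, and the cells of the line were kept in a serum-free keratinocyte medium with bovine pituitary extract and EGF. RWPE1 is 1 line, immortalized with genes of a human papillomavirus, so the libraries stand for this line and not for different donors. One more 24 h library of the study was not analysed here. The labels do not say that the replicates came from separate cultures, and p-values then measure only the spread between these samples, which may be technical. The 3 libraries at 12 h held 32508946 to 46819348 counts, and the 24 h libraries held 27496009 and 34067399.

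Cells sense falling oxygen through hydroxylases that mark the hypoxia-inducible factors (HIF) for destruction. When oxygen is short, HIF accumulates, binds a short DNA element and raises genes for glucose uptake, glycolysis, acid handling and blood vessel growth. Respiration is the other side of this response, since the respiratory chain uses most of the oxygen that a cell consumes and its subunits come from both the nuclear and the mitochondrial genome. Ribosome production and protein synthesis, which are costly in energy, are often limited when hypoxia lasts.

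Between 12 h and 24 h, mRNAs encoded by the mitochondrial genome fell in both 24 h libraries, while nuclear genes for ribosomal proteins and for the respiratory chain rose. All 13 mitochondrial mRNAs were called lower, 78 of 79 cytosolic ribosomal protein genes were called higher, and so were 65 of 75 nuclear respiratory chain genes. Over all tested genes 15.1% were called higher and 13.3% lower. The rises were smaller in 24 h replicate 1 (list medians 0.73 and 0.45 above the 12 h mean) than in replicate 2 (2.03 and 1.38). The mesenchymal filament gene VIM rose and the adhesion gene CDH1 fell, in a list of 34 genes with 5 rises, 4 falls and a median of 0.0058. Among 35 HIF targets a minority rose further and none was called lower in the fit to all 11 libraries. In 7 of the 35 the 24 h libraries lay on opposite sides of the 12 h range.

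Calls came from edgeR's quasi-likelihood test on all 11 libraries, at a p under 0.05 after Benjamini-Hochberg adjustment over every tested gene. In all, 5668 genes were called, 28.4% of those tested. Of these 3019 (15.1% of the tested genes) were higher at 24 h and 2649 (13.3%) were lower, and 1482 and 1307 of them differed by more than 1 on the log2 scale. Values are counts per 1000000 (CPM) scaled by TMM, a method that centres the bulk of genes, so a value says nothing of how much RNA a cell holds. Scaling by library size alone moved the median over all tested genes to -0.45 from -0.0060 on the log2 scale, and 15.5% of the calls were then in the higher direction instead of 53.3%. All changes below are relative to the TMM centre. When only the 12 h and 24 h libraries were fitted, no gene was called, with 5671 genes at an unadjusted p under 0.05 in edgeR and 5498 in limma-voom, where the count of called genes was also 0. The calls therefore use the spread measured at 0 h and 6 h as well, and 3390 genes were called from the 8 hypoxic libraries.

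The 24 h libraries were unlike each other, and each is shown singly here. On log2 CPM the 12 h libraries lay 49.5 to 73.6 apart (Euclidean distance over the tested genes), and the 24 h pair lay 139.9 apart. Replicate 1 at 24 h lay 95.4 to 111.3 from the 12 h libraries and replicate 2 lay 156.7 to 162.9 from them. TMM factors were 0.910 to 0.993 at 12 h, 0.851 in 24 h replicate 1 and 0.539 in 24 h replicate 2. Both 24 h libraries were above all 12 h libraries in 4728 genes (23.7%) and below them all in 5108 (25.6%). They lay on opposite sides in 3256 genes (16.3%), of which 7 were called. Genes named below by rule, from a list or for a large change, had to be called with both 24 h libraries on the same side. In those genes a lack of overlap between the times was therefore a condition of their choice. With 24 h replicate 1 as the only 24 h library, 1598 genes (7.63%) were called higher and 1957 (9.35%) lower. With replicate 2 alone these counts were 4809 (23.1%) and 4682 (22.5%). A lone library is assumed in these fits to vary like the libraries of the other groups. Leaving out replicate 2 of the 12 h group gave 3068 calls, and leaving out its replicate 3 gave 3170. Where counts of a list are given below as a range with 1 library left out, the highest came from leaving out 24 h replicate 1 unless another library is named.

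**Figure D1:**
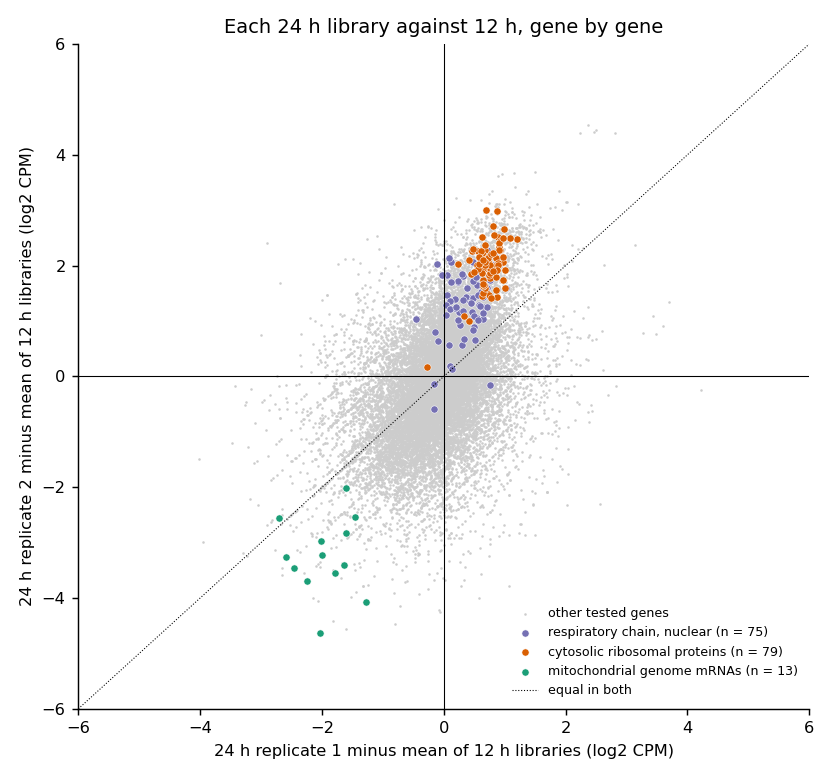
Log2 CPM of 24 h replicate 1 (x axis) and 24 h replicate 2 (y axis), each minus the mean of the 3 libraries at 12 h, for the 19981 tested genes; the dotted line marks equal values and colours mark 3 gene lists. The mitochondrial mRNAs sit at the lower left, with list medians of -2.0 and -3.25, and the ribosomal protein genes at the upper right, with 0.73 and 2.03.

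Epithelial and basal genes were highly expressed at both times, and some luminal genes were expressed as well. KRT5, a keratin of basal cells, was at 13627, 13795 and 15881 CPM at 12 h and at 11069 and 13077 CPM at 24 h. The 16 basal markers summed to 35454 to 39085 CPM at 12 h and to 35542 and 66499 CPM at 24 h. The luminal markers, 11 of 14 of which were tested, summed to 1467 to 1526 CPM and to 1765 and 3045 CPM, while the luminal genes KLK2 and KLK3 had 0 counts in all 5 libraries. Of the other cell types that could be present, endothelial markers summed to 0.203 to 0.326 CPM at 12 h and to 0.642 and 0.218 CPM at 24 h, with none of the 6 expressed enough to be tested. Leukocyte markers summed to 2.51 to 4.03 CPM and to 5.01 and 2.56 CPM (3 of 7 tested), neuroendocrine markers to 0.617 to 0.947 CPM and to 0.856 and 0.599 CPM (3 of 6 tested, with INSM1 at 0). Fibroblast markers summed to 32.9 to 45.0 CPM at 12 h and to 28.2 and 30.6 CPM at 24 h, with 1 of 8 tested.

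The mitochondrial genome encodes 13 subunits of the respiratory chain and of ATP synthase, transcribed inside the organelle. MT-CO1, the catalytic subunit of cytochrome c oxidase (mitochondrial genome, 5904 to 7445, plus strand), was at 11171, 9019 and 13986 CPM at 12 h and at 2752 and 452 CPM at 24 h. Both 24 h libraries were far below every 12 h library, and replicate 2 was lower still than replicate 1. The log2 fold change of MT-CO1 was -2.83 (SE 0.57, edgeR adjusted p = 0.00479). MT-ND6, the complex I subunit carried on the opposite strand (14149 to 14673), was at 376, 381 and 543 CPM and then at 70.9 and 44.7 CPM, a log2 fold change of -2.91 (SE 0.31, edgeR adjusted p = 0.000845). MT-ND3, a small complex I subunit (10059 to 10404), was at 344, 410 and 495 CPM and then at 62.9 and 70.0 CPM. In MT-ND3 the 24 h libraries lay close together, unlike in MT-CO1, and its log2 fold change was -2.65 (SE 0.21, edgeR adjusted p = 0.000302).

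The fall covered the mRNAs of each complex that the mitochondrial genome contributes to. Since the strand setting of the counting was not given, reads counted at MT-ND6 may come from either strand. MT-CO3 had a log2 fold change of -2.89, MT-ND5 of -2.82, MT-ATP6 of -2.51, MT-ND4 of -2.45, MT-CO2 of -2.44 and MT-ATP8 of -2.29. All 13 mRNAs were called lower and below every 12 h library in both 24 h libraries, beside 25.6% of all tested genes below in both. The list median was -2.45, against -0.0060 over all tested genes, and the 13 values ran from -2.91 to -1.80. The median log2 CPM was 2.0 below the 12 h mean in replicate 1 and 3.25 below it in replicate 2. All 13 stayed called lower with any 1 of the 11 libraries left out and with an offset for transcript length and GC content, where the median was -2.80.

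As a share of all counted reads, which no normalization enters, the 13 mRNAs took 4.39%, 3.83% and 5.48% at 12 h. At 24 h they took 1.07% (95% Wilson interval 1.06% to 1.07%) in replicate 1 and 0.264% (0.262% to 0.266%) in replicate 2. These intervals cover counting error only. All genes of the mitochondrial genome together took 4.78% to 6.78% at 12 h and 1.74% and 0.369% at 24 h. In bulk RNA, fewer cells of a type, fewer mitochondria per cell and less RNA in each cannot be told apart. Reads from nuclear copies of mitochondrial sequence cannot be set apart in these counts.

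**Figure D2:**
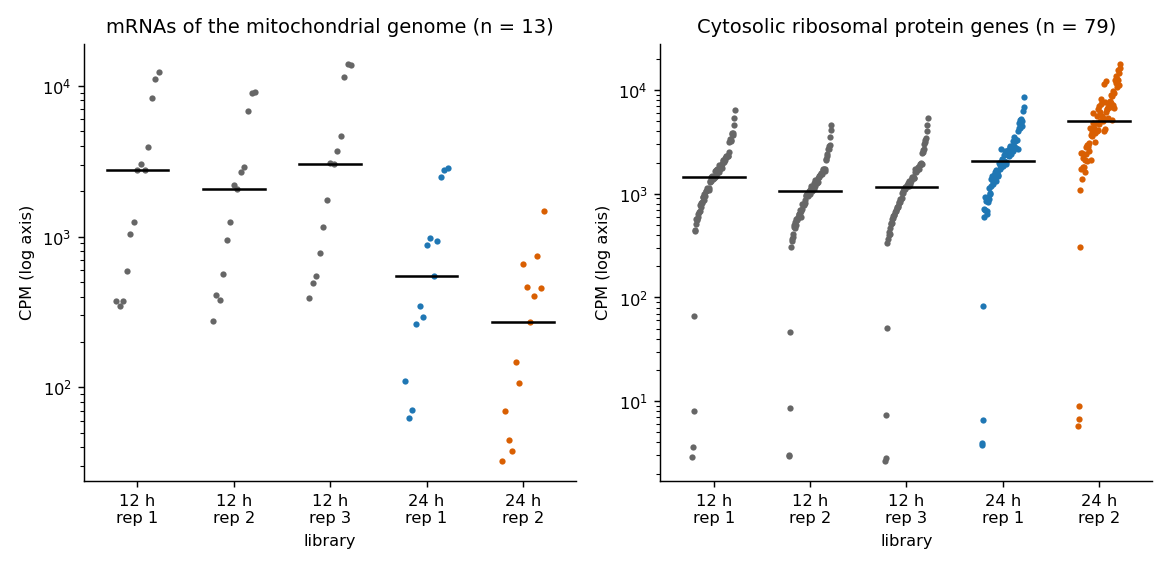
CPM on a log axis in each of the 5 libraries for the 13 mRNAs of the mitochondrial genome (left) and the 79 cytosolic ribosomal protein genes (right); each point is 1 gene and the bar is the median over the genes. The mitochondrial mRNAs drop at 24 h, furthest in replicate 2, and the ribosomal protein genes climb in the same libraries.

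The nuclear genes of the respiratory chain moved the other way. COX4I1, a subunit of cytochrome c oxidase, was at 337, 273 and 288 CPM at 12 h and at 507 and 997 CPM at 24 h. UQCRQ, a subunit of complex III, was at 105, 87.9 and 90.2 CPM and then at 156 and 376 CPM. Both 24 h libraries lay above all 12 h libraries in each gene, with replicate 2 the higher. The log2 fold change was 1.33 for COX4I1 (SE 0.23, edgeR adjusted p = 0.00254) and 1.49 for UQCRQ (SE 0.26, edgeR adjusted p = 0.00257). UQCRB, also of complex III, rose by 1.32, and NDUFB8, a complex I subunit, by 1.56. A gene on the same strand overlaps 33.8% of the exonic bases of NDUFB8, so reads from the pair may be mixed.

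Of 75 nuclear subunit genes 65 were called higher and none lower, beside 15.1% of all tested genes called higher, and 61 were above the 12 h libraries in both 24 h libraries. The list median was 0.97. By complex, 30 of 37 genes rose in complex I, 2 of 4 in complex II, 9 of 9 in complex III, 10 of 10 in complex IV and 14 of 15 in complex V. Complex II, succinate dehydrogenase, is the one with no mitochondrially encoded subunit, and its median of 0.53 was the lowest of the 5 while complex IV had the highest, 1.26. The count rests in part on single libraries. It was 39 or 42 without replicate 2 or 3 at 12 h, and 27 with 24 h replicate 1 as the only 24 h library. The list median was 0.45 above the 12 h mean in replicate 1 and 1.38 in replicate 2.

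Other nuclear genes of mitochondrial proteins rose less uniformly. Their counts stand beside 15.1% of all tested genes called higher and 13.3% called lower. Of 76 tested genes for mitochondrial ribosomal proteins 51 were called higher and none lower, with a median of 0.81. Their count was 25 without replicate 2 or 3 at 12 h and 13 without 24 h replicate 2. MRPS15, of the small subunit, was at 71.3, 54.1 and 60.1 CPM and then at 103 and 169 CPM. MRPL54, of the large subunit, was at 14.8, 13.5 and 15.2 CPM and then at 25 and 48.4 CPM. In both genes the libraries of the times did not overlap, and the log2 fold changes were 1.14 and 1.34 (SE 0.19 and 0.23, edgeR adjusted p = 0.00230 and 0.00248). In the tricarboxylic acid cycle 5 of 17 genes rose and 1 fell, with 3 to 8 rises and 1 to 3 falls when 1 library was left out. The fewest rises came without replicate 2 or 3 at 12 h or 24 h replicate 2. SUCLG1, a subunit of succinyl-CoA ligase, rose by 0.90 and FH, fumarate hydratase, by 0.56, whereas OGDH of the oxoglutarate dehydrogenase complex fell by 0.84 on the log2 scale.

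Genes for cytosolic ribosomal proteins rose together. RPL9 (chromosome 4, 39452587 to 39458931, minus strand) was at 1881, 1175 and 1339 CPM at 12 h and at 2637 and 11383 CPM at 24 h. RPL35 (chromosome 9, 124857880 to 124861981, minus strand) was at 1838, 1256 and 1458 CPM and then at 2410 and 12083 CPM. Both 24 h libraries exceeded all 12 h libraries, by a modest margin in replicate 1 and by a wide one in replicate 2. Each had a log2 fold change of 2.26 (SE 0.43 and 0.45, edgeR adjusted p = 0.00388 and 0.00454). With replicate 1 alone these were 0.84 and 0.65, and with replicate 2 alone 2.93 and 2.97. RPL27 rose by 2.04, RPS3A by 2.03, RPL21 by 1.96, RPS13 by 1.51 and RPL22 by 1.32.

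Of 79 genes 78 were called higher and none lower, with a median of 1.51. With 24 h replicate 1 alone 62 were called higher, beside 7.63% of all genes in that fit, and with replicate 2 alone 78. The list median was 0.73 above the 12 h mean in replicate 1 and 2.03 in replicate 2. Together the 79 genes took 9.61% to 12.1% of the counts at 12 h, 15.8% in 24 h replicate 1 and 25.3% in 24 h replicate 2. Ribosomal protein genes have many processed pseudogenes, and the handling of reads with several matches was not stated. Of 480 tested processed pseudogenes named after them 358 were called higher, so how reads split between genes and copies is uncertain. Among the 10 largest rises by the rule for naming genes, RPS4Y1 (2.10) is a protein-coding gene on chromosome Y that is not among the 79. Its sequence is close to that of another ribosomal protein gene, RPS4X. NACA2 (2.14), also among the 10, is a retrocopy of NACA, the nascent polypeptide associated complex subunit.

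Human ribosomal protein mRNAs typically start with a C followed by a run of pyrimidines, the terminal oligopyrimidine tract through which their translation is regulated. The reference sequence around the annotated start shows how these genes resemble each other there. It is printed for the 5 of the 79 listed genes with the largest rise, a set chosen after the values were seen. Each run spans 15 bases on either side of the RefSeq start on GRCh38, 5′ to 3′ on the strand of the gene, and capitals mark CTTTC.
RPL9, chr4:39458908-39458937, minus strand: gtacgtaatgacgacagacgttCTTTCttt
RPL35, chr9:124861943-124861972, minus strand: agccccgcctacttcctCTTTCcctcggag
RPL27, chr17:42998404-42998433, plus strand: ccggggtgaaaggttagcggaagtgtcctt
RPS3A, chr4:151099613-151099642, plus strand: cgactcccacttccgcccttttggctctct
RPL21, chr13:27251543-27251572, plus strand: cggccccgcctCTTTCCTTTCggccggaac

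RPL9, RPL35 and RPL21 hold the letters, RPL21 in adjoining copies, and RPL27 and RPS3A do not within this window. CTTTC on the strand of the gene was present in 28 of the 63 ribosomal protein genes that had a window (44.4%) and in 1550 of 35116 RefSeq promoter windows (4.41%). On either strand the shares were 46.0% and 7.51%. A match describes the sequence and is neither a mapped start nor a cause of the rise.

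Around the ribosome, noncoding genes that host small nucleolar RNAs rose with it. Many of these host transcripts also begin with an oligopyrimidine tract. Of 20 tested host genes 14 were called higher and none lower, with a median of 1.08, and 8 were called with 24 h replicate 1 alone. SNHG1 was at 58.3, 56.4 and 56.3 CPM at 12 h and at 122 and 116 CPM at 24 h. Its log2 fold change was 1.06 (SE 0.15, edgeR adjusted p = 0.00133), and here the 24 h libraries were nearly equal. SNHG12 rose by 1.42 and SNHG8 by 1.65, though a gene on the other strand overlaps 37.6% of SNHG8.

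Genes for the factors that build ribosomes were called about as often as all tested genes. Of 37 ribosome biogenesis genes 6 rose (16.2%, beside 15.1%) and 5 fell (13.5%, beside 13.3%), with a median of 0.11, and 1 fell with an offset for transcript length and GC content. POLR1A, the large subunit of RNA polymerase I, was at 64.1, 98.4 and 85.8 CPM at 12 h and at 35.1 and 35.9 CPM at 24 h. It fell by 1.22 on the log2 scale (SE 0.23, edgeR adjusted p = 0.00375), while FBL, the methyltransferase fibrillarin, rose by 0.85 (edgeR adjusted p = 0.00760). The FBL call was lost without 24 h replicate 2 (edgeR adjusted p = 0.0532, range over the alternatives 3.5e-05 to 0.140). With 1 library left out, the list had 1 to 10 rises and 4 to 10 falls, the fewest rises without 12 h replicate 3 and 2 without 24 h replicate 2. UTP20, of the small subunit processome, fell by 0.85. Of 20 aminoacyl-tRNA synthetases 2 rose, KARS1 by 0.78 and QARS1 by 0.65, against 8 rises with 24 h replicate 1 alone and 3 rises and 4 falls with replicate 2 alone. In the proteasome, which degrades proteins tagged with ubiquitin, 22 of 31 genes rose and none fell, with a median of 0.61, and the count was 10 without replicate 2 or 3 at 12 h and also without 24 h replicate 2. PSMA1 rose by 1.67, with 26.7% of its exonic bases shared with a gene on the same strand, and PSMD13 by 1.03. Under library size alone the list medians were 0.93 for the ribosomal proteins, 0.61 for the small nucleolar RNA hosts, 0.44 for the respiratory chain, 0.25 for the mitochondrial ribosome, 0.10 for the proteasome and 0.0048 for the mitotic genes, and the other 19 lists with a median above 0 were below it. The rises then numbered 73, 11, 23, 9 and 3 in the first 5 of these lists, and 72, 10, 28, 9 and 6 in limma-voom with sample quality weights.

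**Figure D3:**
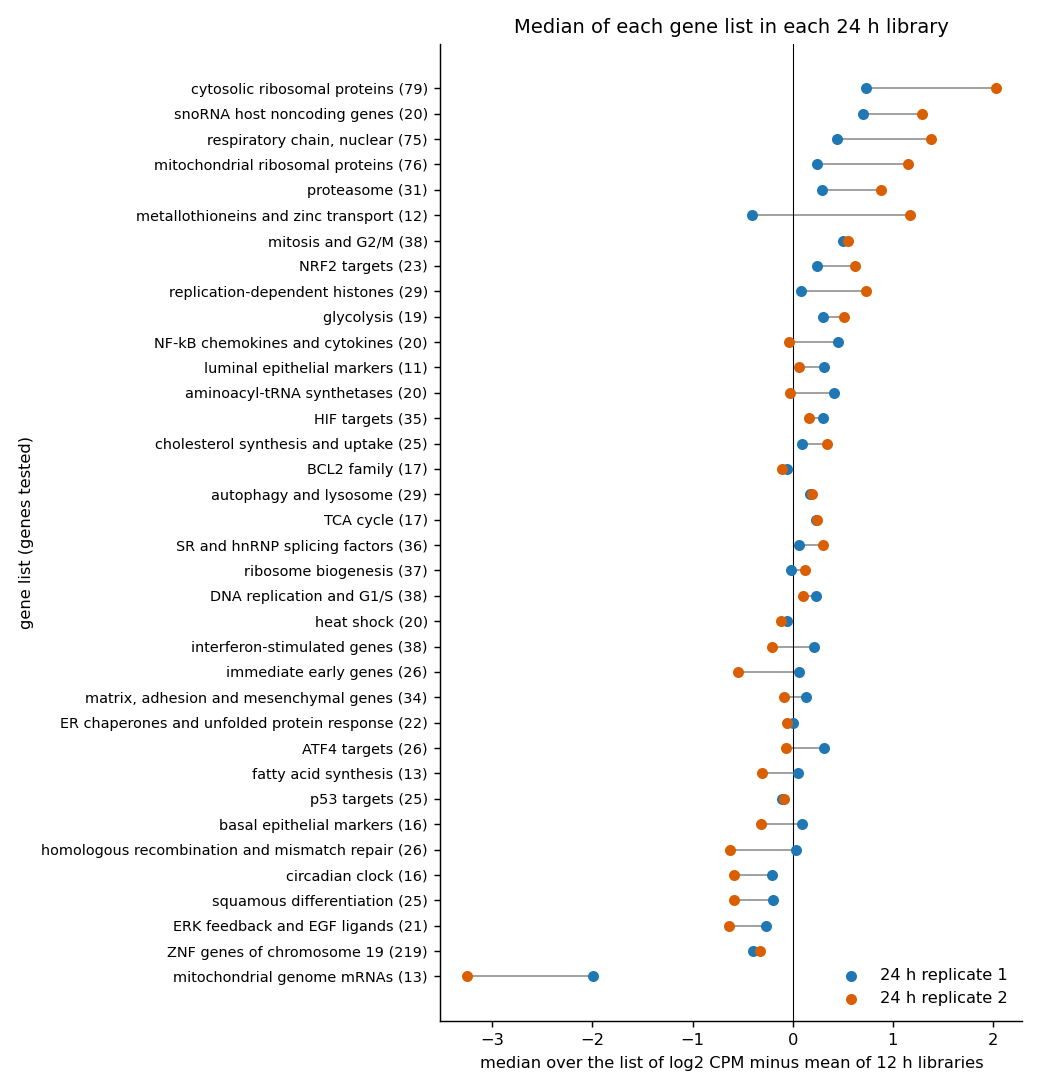
Median over each of 36 gene lists of log2 CPM minus the mean of the 12 h libraries (x axis) in 24 h replicate 1 and 24 h replicate 2, with lists ordered by their fitted median and the number of genes tested in brackets. Replicate 2 lies further from 0 in the mitochondrial mRNAs and in the 5 lists with the highest medians, and several other lists have medians of opposite sign in the pair.

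The direction of change was ordered by transcript length, in both 24 h libraries. The tested genes were divided into 5 equal groups by the length of the canonical transcript. In the shortest group (up to 995 bases) 1220 of 3982 genes were called higher and 187 lower, and in the longest (4929 bases or more) 126 of 3976 were called higher and 1313 lower. The median log2 fold changes from shortest to longest were 0.53, 0.36, 0.051, -0.17 and -0.47. In 24 h replicate 1 the medians of the shortest and longest groups were 0.23 and -0.28, and in replicate 2 they were 0.68 and -0.75. Each 12 h library set against the others of its group stayed between -0.083 and 0.14. Groups by GC content had fitted medians of -0.080 to 0.075, and between the lowest and the highest GC group replicate 1 went from 0.11 to -0.16 and replicate 2 from -0.021 to 0.11.

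Ribosomal protein and respiratory chain transcripts are short, with median lengths of 785 and 763 bases, so their place on this scale stands beside their rise. Among protein-coding genes of the shortest group 434 of 795 were called higher, with a median of 0.85. With an offset fitted per library for length and GC content, 76 of 79 ribosomal protein genes (median 1.19) and 54 of 75 respiratory chain genes (median 0.66) were called higher. The mitochondrial mRNAs, with a median length of 784 bases, fell. Of 2631 tested lncRNA genes 114 rose (4.33%) and 253 fell (9.62%), both under the shares of all tested genes, 15.1% and 13.3%. What part transcript length, or RNA quality, has in these differences was not tested.

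**Figure D4:**
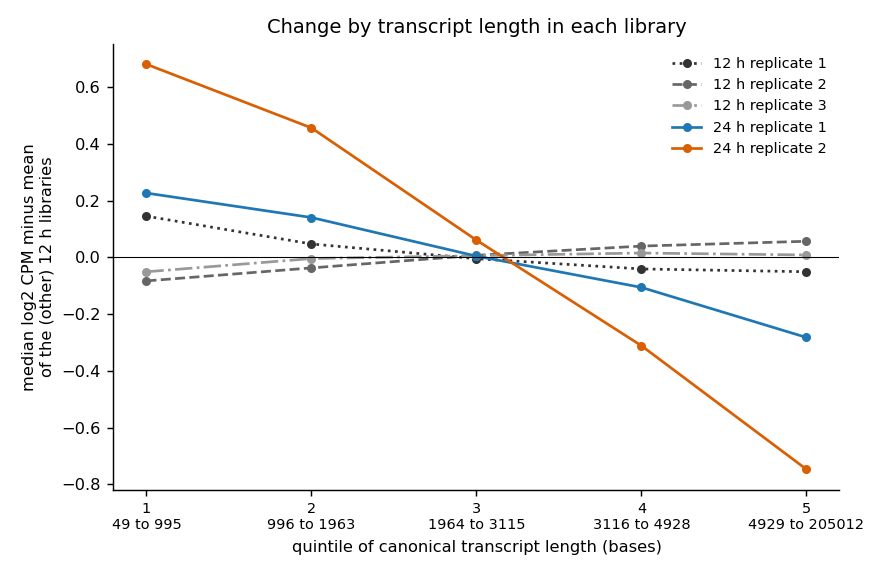
Median log2 CPM minus the mean of the 12 h libraries (for a 12 h library, of the other 12 h libraries) in 5 groups of genes by canonical transcript length in bases. The lines of the 24 h libraries slope down, from 0.68 to -0.75 in replicate 2 and from 0.23 to -0.28 in replicate 1, and the 12 h lines stay near 0.

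HIF target genes, already induced at 12 h, were mixed. Of 35 genes 9 were called higher and none lower, beside 15.1% of all tested genes called higher, and the list median was 0.27. With 24 h replicate 1 alone 7 rose and none fell, but with replicate 2 alone 9 rose and 8 fell. The 24 h libraries lay on opposite sides of the 12 h range in 7 genes. Without 12 h replicate 3 the count of rises was 6, and 1 gene fell without 12 h replicate 1 or 6 h replicate 1. Library size alone gave 2 rises and 2 falls, no filter on low counts 8 and 2, and limma-voom with sample quality weights 0 of either. BNIP3, a mitophagy receptor, was at 296, 387 and 365 CPM at 12 h and at 576 and 925 CPM at 24 h. Its log2 fold change was 1.10 (SE 0.22, edgeR adjusted p = 0.00465). LOX, which crosslinks collagen, was at 8.02, 9.16 and 10.7 CPM and then at 21.7 and 16.9 CPM, a log2 fold change of 1.05 (SE 0.22, edgeR adjusted p = 0.00577). Neither gene overlapped between the times, as the rule for naming genes required.

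PDK1, the kinase that restrains entry of pyruvate into the tricarboxylic acid cycle, rose by 0.79, from 23.0, 26.3 and 27.5 CPM to 49.2 and 39.6 CPM. CA9, a carbonic anhydrase that exports acid, rose by 1.28 (SE 0.36, edgeR adjusted p = 0.0189), from 8.52, 19.6 and 19.5 CPM to 40.6 and 36.9 CPM, and a gene on the other strand overlaps 35.7% of it. ANGPTL4, a secreted inhibitor of lipoprotein lipase, was at 7.37, 13.2 and 13.1 CPM and then at 18.4 and 52.3 CPM, and rose by 1.65. Both 24 h libraries were above 12 h in these genes, but the call of ANGPTL4 was lost without 24 h replicate 2 (edgeR adjusted p = 0.161, the highest over the alternatives, whose lowest was 1.3e-09). ANKRD37, a small ankyrin protein, rose by 1.23, and its call was also lost without 24 h replicate 2 (edgeR adjusted p = 0.106, range over the alternatives 0.00028 to 0.173), and a gene on the other strand overlaps 40.4% of it.

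The glucose transporters differed. SLC2A1 (GLUT1) was at 1864, 2773 and 2678 CPM at 12 h and at 3891 and 4034 CPM at 24 h, and rose by 0.70 (SE 0.22, edgeR adjusted p = 0.0300). The edgeR adjusted p of SLC2A1 was 0.0501 without 0 h replicate 1, 0.0825 and 0.0615 without replicates 1 and 3 at 12 h, and 0.0540 without 24 h replicate 2, so the call was lost in each of these. Over the alternatives it ran from 0.0021 to 0.465. SLC2A3 (GLUT3) was at 60.1, 59.4 and 56.2 CPM and then at 74.7 and 43.6 CPM, on either side of the 12 h range. Its log2 fold change was 0.016 (SE 0.20, edgeR adjusted p = 0.962). The paper proposes that some SLC2A3 reads were assigned to its close duplicate SLC2A14, so the counts of SLC2A3 may be incomplete. VEGFA, the angiogenic growth factor, went from 387, 439 and 382 CPM to 381 CPM, just under the 12 h values, and 160 CPM, far under them (log2 fold change -0.58, SE 0.27, edgeR adjusted p = 0.129). The prolyl hydroxylase EGLN3 was at 0.32 (edgeR adjusted p = 0.544) and NDRG1, a stress response gene, at -0.14 (edgeR adjusted p = 0.704). HIF1A itself stood at 0.0024 (edgeR adjusted p = 0.995), with 326 and 219 CPM in the 24 h libraries, and EPAS1, which encodes HIF-2α, fell by 0.54 (SE 0.14, edgeR adjusted p = 0.0160), from 277, 311 and 300 CPM to 213 and 195 CPM. The EPAS1 call was lost without replicate 2 at 12 h (edgeR adjusted p = 0.0552) or replicate 3 (0.0563), and over the alternatives its adjusted p ran from 0.00011 to 0.654.

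The glycolytic genes called higher in the main fit encode enzymes from the split of fructose bisphosphate onward. Of 19 genes of glycolysis 7 were called higher and none lower, beside 15.1% of all tested genes called higher, with a median of 0.34. The 7 were ALDOC, TPI1, GAPDH, PGK1, PGAM1, ENO1 and PKM. The set depends on the fit, since 9 were called higher with the length and GC offset (median 0.29). None of the hexokinase, phosphofructokinase or PFKFB genes tested passed, and neither did LDHA, lactate dehydrogenase A, at 0.44 (edgeR adjusted p = 0.149). TPI1, triosephosphate isomerase, was at 1225, 1148 and 1200 CPM at 12 h and at 1768 and 3477 CPM at 24 h. Its log2 fold change was 1.14 (SE 0.23, edgeR adjusted p = 0.00517). GAPDH, which follows TPI1 in the pathway, was at 2284, 2173 and 2387 CPM and then at 3079 and 4134 CPM, and rose by 0.66 (SE 0.19, edgeR adjusted p = 0.0229). The edgeR adjusted p of GAPDH was 0.0794 and 0.0642 without replicates 2 and 3 at 12 h and 0.0759 without 24 h replicate 2, and over the alternatives it ran from 0.00023 to 0.450. The count of rises was 4 without replicate 1 or 3 at 0 h, 3 without replicate 1 at 12 h, 2 without either other 12 h library, 1 without 24 h replicate 2 and 9 without 24 h replicate 1, with 2 falls in the last. It was also 1 in the 8 hypoxic libraries, with quality weights and under library size alone. Under library size alone the list median was -0.14 for glycolysis and -0.18 for the HIF targets.

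**Figure D5:**
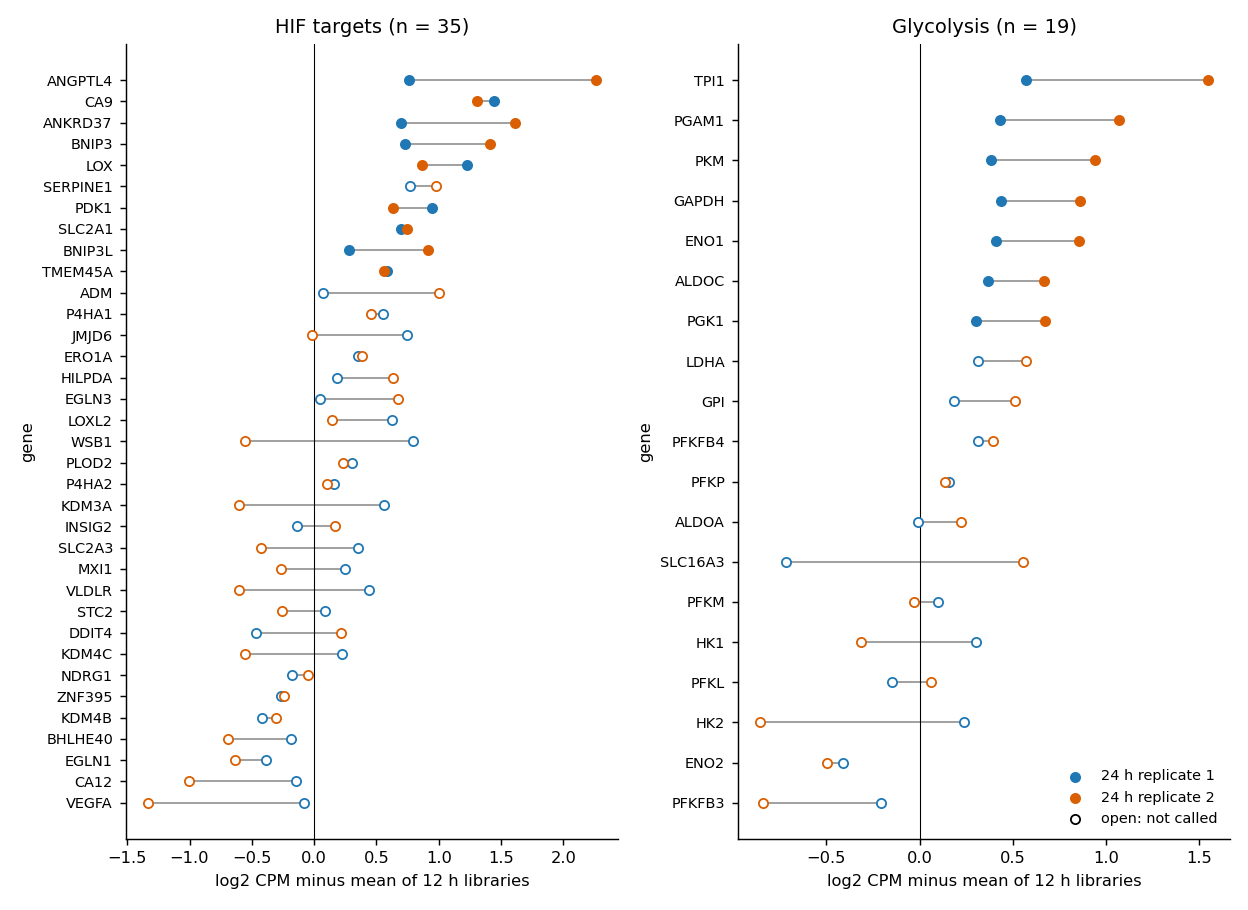
Log2 CPM minus the mean of the 12 h libraries (x axis) in each 24 h library for the 35 HIF targets (left) and 19 genes of glycolysis (right), ordered by fitted change; filled points are genes called at an adjusted p under 0.05. Called genes lie above 0 in both libraries, while SLC2A3 has 1 library on each side of 0, and VEGFA has both below it.

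HIF binds the core ACGTG of the hypoxia response element. The reference promoters of the called genes show where this core lies. Of 15 HIF target and glycolysis genes called higher with both 24 h libraries above 12 h, 8 hold the core on either strand between 250 bases before and 50 after the RefSeq start, as do 7518 of 35116 such windows (21.4%). The 60 bases around the core nearest the start, among those before it, are printed for the 4 of these with the smallest p, on GRCh38 and 5′ to 3′ on the strand of the gene. Capitals mark ACGTG and its reverse complement CACGT, which overlap in CACGTG.
BNIP3, chr10:131982025-131982084, minus strand: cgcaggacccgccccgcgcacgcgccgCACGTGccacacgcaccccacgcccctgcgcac
LOX, chr5:122078270-122078329, minus strand: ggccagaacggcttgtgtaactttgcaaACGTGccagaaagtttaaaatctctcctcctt
ANGPTL4, chr19:8363905-8363964, plus strand: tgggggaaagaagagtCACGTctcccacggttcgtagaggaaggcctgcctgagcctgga
ANKRD37, chr4:185396670-185396729, plus strand: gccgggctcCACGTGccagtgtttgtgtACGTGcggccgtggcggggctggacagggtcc

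BNIP3 holds 1 palindromic CACGTG and ANKRD37 a palindrome with a further core downstream. The 300 base window of LOX holds 4 cores, 1 of them shown, and that of ANGPTL4 holds 1. A match is a description of the letters, and the binding of HIF to these sites was not measured here. TPI1, PDK1, PGAM1, ENO1, SLC2A1, PKM and TMEM45A are the 7 of the 15 genes examined with no match in this window.

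The lists that follow held 0 to 5 rises and 0 to 1 fall each in limma-voom with sample quality weights. Under library size alone they held 0 to 4 rises and 1 to 11 falls. Their counts stand beside 15.1% of all tested genes called higher and 13.3% called lower. Genes of lipid metabolism were mixed. Of 25 genes of cholesterol synthesis and uptake 8 rose and 4 fell, with a median of 0.24, and with 1 library left out 4 to 12 rose and 3 to 6 fell, the fewest rises without 24 h replicate 2. Among those that fell are CYP51A1 and LSS, which act on sterol precursors, at -1.28 and -0.62, and SREBF2, the factor that drives the pathway, at -0.70. FDPS, which makes farnesyl diphosphate, was at 52.6, 51.1 and 50.6 CPM at 12 h and at 76.4 and 98.4 CPM at 24 h, and rose by 0.76 (SE 0.14, edgeR adjusted p = 0.00302). Its 24 h libraries both lay above all 12 h libraries, again a condition of naming it. ACAT2 rose by 0.67 and the sterol isomerase EBP by 1.52, though 22.2% of ACAT2 is overlapped by a gene on the other strand and 36.4% of EBP is shared with a gene on the same strand. Of 13 tested genes of fatty acid synthesis 1 rose and 1 fell: ME1, a source of NADPH, by 0.63, and ACACA, the rate-limiting carboxylase, which fell by 1.13. With 1 library left out 1 to 2 rose and 1 to 4 fell.

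Stress pathways were mixed. Of 26 tested ATF4 targets 7 rose and 1 fell, with a median of -0.018 and with 0 to 4 falls when 1 library was left out. TRIB3, a pseudokinase induced by amino acid and endoplasmic reticulum stress, was at 124, 103 and 122 CPM and then at 267 and 295 CPM. Its log2 fold change was 1.27 (SE 0.16, edgeR adjusted p = 0.00118), and the 24 h libraries agreed closely. SHMT2 of mitochondrial one-carbon metabolism rose by 0.76, and ATF3 was at 16.7 and 5.99 CPM at 24 h, both above the 12 h libraries (3.11 to 4.70 CPM). Of 22 genes of the unfolded protein response 1 rose (4.5%) and 3 fell (13.6%, near the 13.3% of all tested genes). SYVN1, a ubiquitin ligase of the endoplasmic reticulum, fell by 0.94 and the chaperone HYOU1 by 1.01, while SEC61B of the translocon rose by 1.17. The calls of HYOU1 and SEC61B were lost without 24 h replicate 2 (edgeR adjusted p = 0.0690 and 0.0627, in ranges over the alternatives of 7.2e-06 to 0.148 and 2.3e-06 to 0.108). The falls in the list numbered 1 without 24 h replicate 2 and 7 without 24 h replicate 1. In the heat shock list 3 of 20 genes fell, BAG3, HSPA1A and HSPA1B, at log2 fold changes of -1.30, -1.20 and -1.17. HSPA1A and HSPA1B are near-identical copies. Without 24 h replicate 2 none of the 3 was called, BAG3 having an edgeR adjusted p of 0.0997 (range over the alternatives 6.4e-09 to 0.157). In the list 1 gene fell without any single 0 h library, without replicate 2 at 6 h or without replicates 1 or 3 at 12 h, and 6 fell without 24 h replicate 1.

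Of 23 tested NRF2 targets, which guard against oxidants, 10 rose and 1 fell, with a median of 0.39. With 1 library left out 6 to 12 rose and 1 to 3 fell, the fewest rises without 24 h replicate 2. NQO1, a quinone reductase, was at 104, 101 and 98.9 CPM and then at 183 and 309 CPM, and rose by 1.28 (SE 0.20, edgeR adjusted p = 0.00172). AKR1C3, which reduces steroids, rose by 1.31 and shares much sequence with other AKR1C genes. TXNRD1, thioredoxin reductase, was the one that fell, by 0.79 on the log2 scale, from 177, 195 and 187 CPM to 101 and 115 CPM. Its 24 h libraries lay close together and below all 12 h libraries.

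Proliferation genes are set beside 15.1% of all tested genes called higher. Of 38 genes of DNA replication 9 rose (23.7%) and 2 fell, and with 1 library left out 3 to 10 rose and 0 to 6 fell, the fewest rises without replicate 2 or 3 at 12 h. PCNA, the sliding clamp, was at 120, 115 and 112 CPM and then at 173 and 239 CPM, and rose by 0.83 (SE 0.19, edgeR adjusted p = 0.00736). Of 38 mitotic genes 5 rose (13.2%, under the share of all genes) and none fell, with a median of 0.44. PTTG1 (securin) rose by 0.88, from 78.4, 96.9 and 87.3 CPM to 152 and 169 CPM. The mitotic count was 2 without replicate 2 or 3 at 12 h, 3 without replicate 3 at 0 h or replicate 1 at 12 h and 12 without 6 h replicate 3, and up to 3 fell. Of 29 tested replication-dependent histone genes 7 rose, H1-2 by 1.72 and H2AC6 by 1.4, and 2 rose with 24 h replicate 1 alone against 13 with replicate 2 alone. H2AC20, among the 10 largest rises by the rule for naming genes, was at 4.4, 5.25 and 5.12 CPM and then at 7.92 and 32.8 CPM. Its call was lost without 24 h replicate 2, where its log2 fold change was 0.67.

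Of 25 p53 targets 3 rose and 6 fell. With the length and GC offset 1 fell, 13 of the 25 being in the 2 groups of longest transcripts, and 2 to 7 rose with 1 library left out, the fewest without any single 12 h library. CCNG1, cyclin G1, was at 65.0, 60.2 and 60.8 CPM and then at 154 and 167 CPM. It rose by 1.37 (SE 0.15, edgeR adjusted p = 0.000845), with the 24 h libraries nearly equal. DDB2, a sensor of damaged DNA, rose by 0.66, and TIGAR, which lowers fructose bisphosphate, fell by 1.16. In the BCL2 family 5 of 17 tested genes rose and 3 fell, with 2 to 7 rises and 2 to 4 falls when 1 library was left out. The fewest rises came without replicate 2 or 3 at 12 h or 24 h replicate 2. The survival gene MCL1 fell by 0.84, from 254, 226 and 229 CPM to 127 and 137 CPM (SE 0.15, edgeR adjusted p = 0.00280). BID, which promotes cell death, rose by 1.39, and BMF, which does so too, fell by 1.71.

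Single genes of the matrix, adhesion and mesenchymal list changed, in both directions. The 4 epithelial markers, CDH1 among them, summed to 1308 to 1339 CPM at 12 h and to 1343 and 2083 CPM at 24 h. VIM, the intermediate filament of mesenchymal cells (chromosome 10, 17228241 to 17237593), was at 57.0, 23.4 and 24.4 CPM at 12 h and at 137 and 165 CPM at 24 h. CDH1, the adhesion protein E-cadherin (chromosome 16, 68737292 to 68835537), was at 333, 362 and 387 CPM and then at 173 and 138 CPM. The times did not overlap in either gene, as the rule for naming genes required. The log2 fold changes were 2.11 for VIM (SE 0.30, edgeR adjusted p = 0.00136) and -1.21 for CDH1 (SE 0.17, edgeR adjusted p = 0.00134). A gene on the other strand overlaps 24.6% of VIM. The list of 34 matrix, adhesion and mesenchymal genes as a whole had 5 rises, 4 falls and a median of 0.0058, with ITGA2, a collagen receptor, down by 0.86 and the collagen COL12A1 down by 1.05. The rises numbered 2 without replicate 2 or 3 at 12 h, and 8 fell without 24 h replicate 1.

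Among 25 tested genes of squamous differentiation 2 rose and 5 fell, with a median of -0.41. KRT1, a keratin of differentiating cells, was at 51.3, 10.5 and 16 CPM and then at 5.43 and 3.0 CPM, and fell by 2.60 (SE 0.65, edgeR adjusted p = 0.0121). KRT6B fell by 0.88, from 1181, 1187 and 1277 CPM to 698 and 625 CPM, and IVL (involucrin) by 1.10. The calls of KRT1 and IVL were lost without 24 h replicate 2 (edgeR adjusted p = 0.0807 and 0.0986, in ranges over the alternatives of 2.7e-22 to 0.575 and 7.5e-05 to 0.438). The list had 2 to 9 falls with 1 library left out, the fewest without 24 h replicate 2, and 1 to 4 rises, the most without 6 h replicate 3. Of 16 basal markers 2 rose and 2 fell. KRT5 stood at -0.26 (edgeR adjusted p = 0.488) and KRT14 at 0.74 (edgeR adjusted p = 0.0758). With 1 library left out 0 to 4 basal markers rose and 0 to 7 fell, with no fall without any single 0 h library, replicate 2 or 3 at 12 h or 24 h replicate 2. Of 11 tested luminal markers 3 rose (KRT8, KRT18 and CD24) and FOXA1 fell, and the rises numbered 0 without 12 h replicate 3 or 24 h replicate 2 and 1 without any single 0 h library or replicate 2 at 12 h.

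Genes for EGF ligands, their receptors and feedback on the EGF pathway formed 1 list, EGF being supplied by the medium. The activity of the pathway was not measured. Of 21 genes 2 rose and 5 fell, with a median of -0.41. With the length and GC offset the median was -0.11, 12 of the 21 being in the 2 groups of longest transcripts. With 1 library left out 0 to 2 rose and 1 to 7 fell, the fewest falls without 24 h replicate 2, then 2 or 3 without any single 0 h library, 6 h replicate 1 or replicates 2 or 3 at 12 h. SPRED2, an inhibitor of the pathway, was at 36.9, 27.4 and 29.6 CPM and then at 15.1 and 10.8 CPM, and fell by 1.27 (SE 0.20, edgeR adjusted p = 0.00175). FOSL1, an AP-1 factor downstream of the pathway, fell by 1.5, and IER3 rose by 0.94, though 38.9% of IER3 is overlapped by a gene on the other strand. Of 26 immediate early genes 4 rose and 5 fell, with 3 to 10 falls when 1 library was left out, the fewest without 12 h replicate 2. MYC was at 273, 191 and 240 CPM and then at 172 and 131 CPM, a log2 fold change of -0.63 (SE 0.25, edgeR adjusted p = 0.0729).

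Of 20 tested chemokine and cytokine genes under NF-kB 5 rose and 2 fell, with 2 rises without 12 h replicate 3 and 3 without 12 h replicate 2 or 24 h replicate 1, and 6 falls without the last. IL1A, an alarm cytokine of epithelia, was at 45.9, 25 and 26 CPM and then at 121 and 66.5 CPM. It rose by 1.54 (SE 0.28, edgeR adjusted p = 0.00301). Of 38 tested interferon-stimulated genes 5 rose and 3 fell, with a median of 0.026, and 3 rose without replicate 2 or 3 at 12 h, 2 without 24 h replicate 2 and 8 without 24 h replicate 1. The interferon-stimulated genes called higher (13.2%) and lower (7.9%) were both under the shares of all tested genes. USP18, which limits interferon signalling, rose by 0.97 from 2.07 to 2.40 CPM at 12 h to 4.92 and 3.76 CPM.

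The 24 h libraries differed most from each other in a further set of genes, given here as values with no test. CRYBG3 was at 28.9, 24.3 and 23.5 CPM at 12 h, at 27.3 CPM in 24 h replicate 1 and at 3.32 CPM in replicate 2. ARHGAP5 was at 101, 94.0 and 95.8 CPM, then at 101 and 12.9 CPM. In both genes replicate 1 was at the 12 h level and replicate 2 far below it. RNF169 and REL had the same order, with 51.5 and 6.65 CPM and with 17.5 and 2.29 CPM at 24 h. ADAMTS1, a secreted protease, was instead raised in replicate 1, at 45.2, 42.4 and 30.6 CPM and then at 209 and 27.1 CPM.

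In the other direction, MRPL12 was at 7.98, 8.65 and 7.79 CPM at 12 h and at 5.78 and 50.8 CPM at 24 h, and a gene on the same strand overlaps 69.5% of it. CCDC85B, from a gene with a short transcript, was at 19.1, 14.5 and 12.4 CPM and then at 8.94 and 60.3 CPM. PLEKHJ1 was at 9.57, 15.4 and 13.5 CPM and then at 11.3 and 69.6 CPM. The histone genes H4C14 and H4C15, which are near-identical copies, were at 19.2 CPM each in replicate 1 and at 150 CPM each in replicate 2, with 9.91 to 38.2 CPM at 12 h in H4C14. The 5 genes that were lowest in replicate 2 against replicate 1 lie in the longest group of transcripts, and the 5 that were highest lie in the 2 shortest groups. DPM3 and FUOM are among the 10 largest rises by the rule for naming genes. In them replicate 2 also carried the change, with 2.70 and 17.1 CPM and with 8.0 and 38.7 CPM at 24 h. Their calls were lost without 24 h replicate 2 (edgeR adjusted p = 0.608 and 0.0887, in ranges over the alternatives of 2.2e-10 to 0.608 and 1.6e-13 to 0.129).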

How the data were processed

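RNA from RWPE1 cells was sequenced in 11 libraries at 0, 6, 12 and 24 h of 1% oxygen. The authors trimmed 75-cycle single-end reads (Trimmomatic), aligned them to GRCh38 with Ensembl release 99 (STAR) and made the deposited raw gene counts with featureCounts. The strand setting was not given in the sources used here.

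Counts of 60676 genes were filtered with filterByExpr and scaled by TMM, and edgeR's quasi-likelihood test was fitted to all libraries with time as the only factor. log2 CPM used a prior count of 2. No label says that replicate numbers pair the samples, and the main fit did not pair them. An exact permutation test of 2 against 3 libraries cannot go below p = 0.2, and none was run. Symbols, positions, overlaps and canonical transcript lengths came from GENCODE 44, the canonical length being taken after the files were seen because the longest transcripts overstated short genes. The 10 largest changes each way were taken among called protein-coding genes with a mean of at least 5 CPM over the 5 libraries. Both 24 h libraries also had to lie on the same side of all 12 h libraries. Up to 4 genes per list were named under the same conditions of call and side. Fixed genes were named whatever their values. The 5 largest differences each way between the 24 h libraries needed a mean of at least 10 CPM. From all of these the text gives a selection. Members and the 36 lists were chosen with earlier results of these data known. Tests were checked on simulated counts in which a gene had the same spread in all libraries. That check cannot speak to a 24 h pair as unlike each other as here. edgeR 4.0.16 was run in R 4.3.3, and the alternatives used limma 3.58.1 and DESeq2 1.42.0.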

Additional observations from a re-analysis of the deposited data

How the results depend on the processing

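The number of genes called was 5197 in limma-voom, 6593 in DESeq2, 5740 with median-of-ratios factors, 5458 with library size alone, 6144 without a filter, 5293 with at least 10 counts in every library and 4550 with the length and GC offset. It was 1093 in limma-voom with sample quality weights, 3390 in the 8 hypoxic libraries, and 0 with only the 12 h and 24 h libraries, in edgeR and in limma-voom, the latter chosen after seeing the data. With 1 library left out it ran from 3068 (without 12 h replicate 2) to 9491 (without 24 h replicate 1). Of the called genes 62.6% were higher with quality weights, 61.5% with the offset, 15.5% with library size alone and 45.6% without a filter. The causes were not tested.

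The replicate block gave 4463 calls. Same-numbered 12 h and 24 h libraries deviated with r = 0.077 and 0.033 across genes. With 2 libraries at 24 h the deviations mirror each other, so these values cannot decide whether same-numbered libraries share a culture.

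Of the 25 list medians above 0, 19 were below 0 under library size alone, 2 list medians changed sign under median-of-ratios factors and 8 under the offset. These 8 include the histone list (-0.062) and the basal markers (0.29).

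MRPL12 and PLEKHJ1, given above by their CPM, were called and stood at -0.51 and -0.20 with 24 h replicate 1 as the only 24 h library. The genes named with a fold change whose value changed sign were not called. SLC2A3 stood at -0.028 in limma-voom, -0.35 with library size alone, -0.072 without a filter, -0.020 with 10 counts in every library, -0.0081 and -0.062 with only the 12 h and 24 h libraries (edgeR, limma-voom), and -0.45 to 0.34 with 1 library left out. HIF1A stood at -0.029 in limma-voom, -0.031 with quality weights, -0.38 with library size alone, -0.088 without a filter, -0.036 with 10 counts in every library, -0.023 and -0.062 with only the 12 h and 24 h libraries, -0.0015 in the 8 hypoxic libraries -0.057 with the block and -0.34 to 0.25 with 1 library left out. EGLN3 was at -0.21 with library size alone and at -0.046 to 0.56 with 1 library left out, and NDRG1 at 0.068 with the offset.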

Other observations

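Zinc finger genes of chromosome 19, most of which encode repressors of transposable elements, fell more often than they rose. Of 219 tested genes 57 were called lower and 5 higher, beside 13.3% and 15.1% of all tested genes, with a median of -0.42. ZNF264 was at 20.6, 29.3 and 29.0 CPM at 12 h and at 8.30 and 8.28 CPM at 24 h, and fell by 1.67 (SE 0.20, edgeR adjusted p = 0.00112). ZNF805 fell by 1.63. Of these genes 148 are in the 2 groups of longest transcripts, 28 were called lower without 12 h replicate 2 and 29 without 12 h replicate 3, and 40 with the length and GC offset.

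Beside the counts below, 15.1% of all tested genes were called higher and 13.3% lower. In the splicing list 8 of 36 genes rose and 3 fell, with 4 rises without replicate 2 or 3 at 12 h. SRRM2, a large spliceosomal scaffold protein, was at 699, 939 and 940 CPM and then at 260 and 291 CPM. It fell by 1.64 (SE 0.20, edgeR adjusted p = 0.00112), and SON, another scaffold of nuclear speckles, by 1.29, while the kinase CLK1 rose by 1.09. Of 16 circadian genes 3 fell and none rose, with 0 falls without 12 h replicate 3 or 24 h replicate 2 and 10 without 24 h replicate 1. Of 29 autophagy and lysosome genes 7 rose and 2 fell, HEXA by 0.91 among the rises, and 1 rose without replicate 2 or 3 at 12 h. Of 12 metallothionein and zinc transport genes 1 rose and 2 fell, MTF1, the zinc-sensing factor, by 1.36, and 0 to 5 rose with 1 library left out. Of 26 genes of homologous recombination and mismatch repair 2 rose and 3 fell, with 0 to 10 falls when 1 library was left out.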
